A study of Sus scrofa with 8 samples.

Results

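The genes described here are 10 genes that mark mast cells or make up their granules and receptors: CPA3, MS4A2, HDC, FCER1A, GATA2, HPGDS, SLC18A2, RGS13, TPSB2 and CMA1. They were chosen by name, and their rows were taken by gene symbol from a table of read counts for 31907 Ensembl genes in pig skin. Rows were found for 7 of the 10, and all 7 passed the filter on low counts that left 19862 genes for testing. CPA3, TPSB2 and CMA1 matched no row by symbol, so no value is given under those names.

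The skin came from 2 wild-type Yorkshire swine, pig 13 and pig 14. In each pig, 2 sites received IL-15 in the dermis (200 ng in 100 µl saline) and were biopsied 3 h later, and 2 sites were biopsied without injection. The injected group therefore held 4 biopsies (sites 12c and 12d of pig 14, sites 12c and 12e of pig 13) and the control group 4 (sites 6b and 7e of pig 14, sites 6b and 7b of pig 13). The design text gives the purpose as the choice of genes that IL-15 induces strongly, for use with a topical JAK1/3 inhibitor. No site received saline alone, and every injected site carried the number 12 while controls carried 6 or 7, so the injection, the needle and the position on the skin cannot be told apart. Sites of a pig are not separate animals, and p-values below measure the spread between sites within these 2 pigs.

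Mast cells are tissue-resident cells of the dermis that lie near vessels and nerves. They carry the high-affinity IgE receptor, and crosslinking of that receptor releases granules that hold histamine and proteases and starts the synthesis of prostaglandins and leukotrienes. Their survival depends on the receptor KIT, and GATA2 is needed for their identity. A whole biopsy holds few mast cells among many other cells, so fewer mast cells and less RNA per mast cell cannot be told apart in any value below.

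Read counts per biopsy summed to between 28471089 and 36070107. A gene with 0 counts could still have been present at up to 0.0795 to 0.114 CPM (read counts scaled to the library total), the level of 3 counts, which covers counting error only. Levels of a gene between biopsies are given as CPM after TMM scaling, which adjusts each library for its composition. Levels between genes are given as RPKM, which divides the scaled CPM by the gene's length in kilobases.

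Per length, the levels of the 7 genes ran from MS4A2 down to RGS13. MS4A2, the beta chain of the IgE receptor, had the highest level at 11.8 ± 5.04 RPKM (SD over 8 biopsies). FCER1A, the alpha chain that binds IgE, followed at 3.80 ± 1.93 RPKM, and GATA2 was at 3.20 ± 0.61 RPKM. SLC18A2, the transporter that loads histamine and other amines into granules, stood at 2.39 ± 0.39 RPKM, beside HPGDS, the haematopoietic prostaglandin D synthase, at 2.31 ± 0.52 RPKM. The ranges of FCER1A, GATA2, SLC18A2 and HPGDS overlapped, so their order is not resolved. HDC, the enzyme that makes histamine, was lower at 0.704 ± 0.27 RPKM, and RGS13, a regulator of G protein signalling that dampens mast cell responses, was lowest at 0.166 ± 0.10 RPKM. RGS13 rested on 2 to 23 counts per biopsy.

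**Figure D1:**
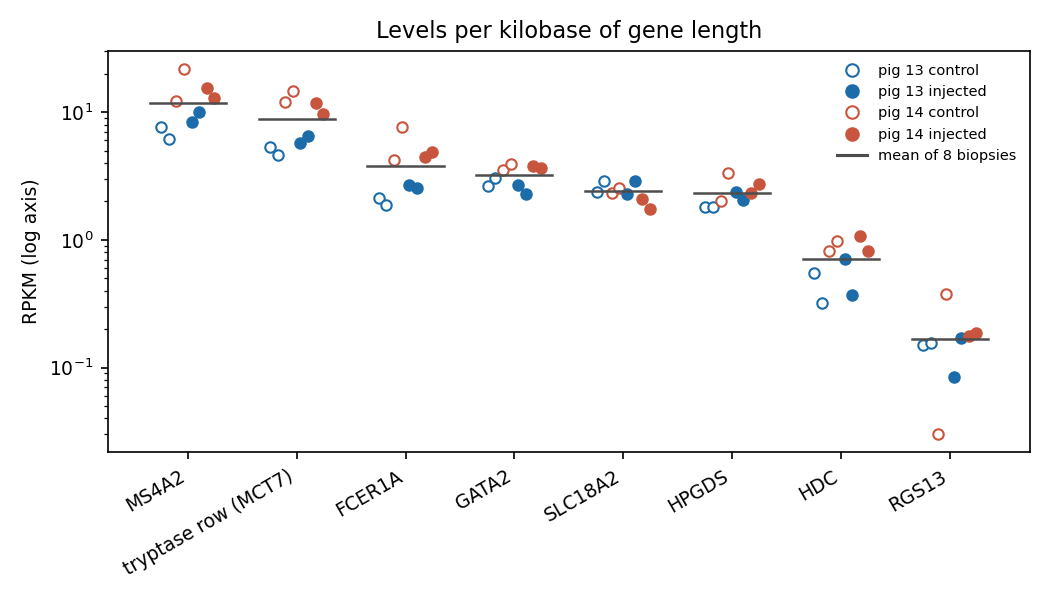
RPKM on a log axis for the 7 mast cell genes and a tryptase row, with 1 point per biopsy and a line at the mean of 8 biopsies. Levels fall from MS4A2 at 11.8 RPKM to RGS13 at 0.166 RPKM, and the 4 genes from FCER1A to HPGDS overlap.

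The mast cell genes did not pass the test for a difference between injected and control sites. In edgeR's quasi-likelihood test with pig as a block, 0 of 7 were called at an adjusted p under 0.05, against 0.0352% of all genes tested, which was 7 genes higher and 0 lower. The comparison as a whole made few calls, so the count of 0 says little about these genes in particular. None of the 7 reached an unadjusted p under 0.05, whereas 474 genes higher and 428 lower did so among all genes. DESeq2 also called 0 of the 7, though it gave no adjusted p for RGS13, and called 0.292% of all genes. The median log2 fold change of the 7 genes was -0.01, as was that of all 19862 genes, with 3 genes above 0 and 4 below. Their adjusted p-values ran from 0.964 to 0.998. Injected and control CPM overlapped for all 7, while 2.08% of genes tested did not overlap.

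The IgE receptor chains come first. MS4A2 (chromosome 2, 11400420 to 11420299, Sscrofa11.1) stood at 59.0 CPM at site 12d and 48.9 at site 12c of pig 14, and at 31.9 at site 12e and 38.3 at site 12c of pig 13 after injection. Its controls were at 46.0 at site 7e and 82.5 at site 6b of pig 14, and at 29.0 at site 7b and 23.5 at site 6b of pig 13. The highest and the lowest of the 8 values were both controls, and the groups overlapped. The means were 44.5 ± 11.9 CPM in injected and 45.3 ± 26.6 CPM without injection (SD, n = 4), and the log2 fold change was 0.08 ± 0.21 (SE), with a 95% interval from -0.40 to 0.57.

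FCER1A (chromosome 4, 91118879 to 91125437) had a similar pattern at a lower level. Its injected biopsies were at 4.53 CPM at site 12d and 4.96 at site 12c of pig 14, and at 2.73 at site 12e and 2.62 at site 12c of pig 13. Controls were at 4.31 at site 7e and 7.86 at site 6b of pig 14, and at 2.18 at site 7b and 1.93 at site 6b of pig 13. Again site 6b gave the highest value in pig 14 and the lowest in pig 13. The log2 fold change for injection was -0.01 ± 0.24, with an interval from -0.55 to 0.54.

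For histamine, HDC (chromosome 1, 121505742 to 121525255) had injected values of 2.80 and 2.13 CPM in pig 14 and 1.87 and 0.981 in pig 13, from sites 12d, 12c, 12e and 12c in that order. Control values were 2.15 and 2.59 CPM in pig 14, from sites 7e and 6b, and 1.45 and 0.846 in pig 13, from sites 7b and 6b. The groups overlapped, and the log2 fold change was 0.17 ± 0.28. SLC18A2 (chromosome 14, 127357555 to 127396533) had injected values of 8.40, 7.09, 9.16 and 11.7 CPM and control values of 9.42, 10.3, 9.66 and 11.7 CPM, with sites in the same order. The groups overlapped, and its log2 fold change was -0.19 ± 0.14, with an interval from -0.51 to 0.13. The last 711 exon bases of SLC18A2 are also exon of PDZD8 on the other strand, at a mean of 71.3 CPM. No source used here states a strand setting for the counting, and without one the reads of both genes in that stretch cannot be told apart.

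HPGDS, which makes prostaglandin D2 in mast cells and also occurs in macrophages, lies on chromosome 8 from 125382952 to 125405955. It was at 2.00, 2.35, 2.04 and 1.75 CPM after injection and at 1.73, 2.86, 1.56 and 1.54 CPM in controls, in the site order used above. A single control, site 6b of pig 14, stood above all other biopsies, and the log2 fold change was 0.11 ± 0.23.

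Of the regulators, GATA2 (chromosome 13, 71984063 to 71997622) had the narrowest interval. GATA2 stood at 13.4, 13.0, 9.55 and 8.11 CPM after injection and at 12.4, 13.9, 9.36 and 10.8 CPM without it. All pig 14 values lay above all pig 13 values, and the log2 fold change for injection was -0.09 ± 0.12, with an interval from -0.36 to 0.18. GATA2 is also a gene of endothelial cells, whose 12 tested markers had a median log2 fold change of 0.08 with 0 called. Of these 12 markers 10 were above 0, and the smallest edgeR adjusted p was 0.173. An unadjusted edgeR p under 0.05 was reached by 3 of them, and by 474 genes higher and 428 lower among all 19862. RGS13 (chromosome 10, 1057622 to 1082222) had 12, 12, 6 and 15 counts in injected and 2, 23, 13 and 12 counts in control biopsies, too few for a narrow estimate. Its interval ran from -1.49 to 1.12.

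**Figure D2:**
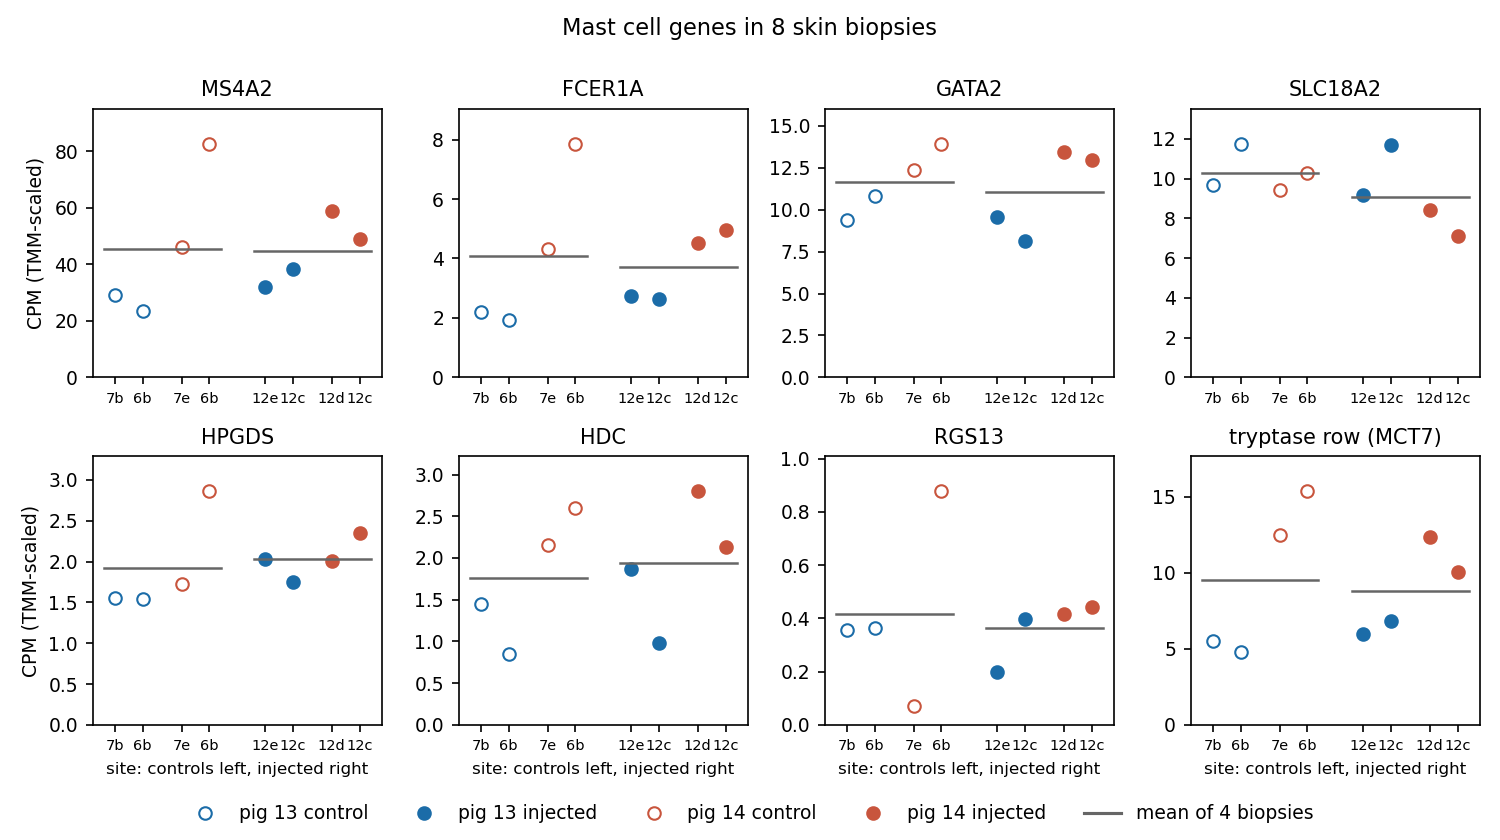
CPM after TMM scaling of the 7 genes and of a tryptase row in each biopsy, controls at the left and injected sites at the right, pig 13 in blue and pig 14 in red, with a line at the mean of the 4 biopsies of each group. Injected and control points overlap in every panel, and for MS4A2, FCER1A, GATA2, HDC and the tryptase row the pig 14 points lie above the pig 13 points.

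Some of the mast cell genes differed between the animals. Of the 7 genes, 3 were higher in pig 14 and 0 lower, against 6.39% of all genes tested higher and 4.34% lower, or 10.7% in either direction. FCER1A averaged 5.41 ± 1.65 CPM in pig 14 and 2.37 ± 0.37 in pig 13 (SD, n = 4), a 2.28-fold difference with a log2 fold change of 1.19 ± 0.24 and an adjusted p of 0.0120. MS4A2 averaged 59.1 ± 16.6 and 30.7 ± 6.14 CPM, a log2 fold change of 0.95 ± 0.21 with an adjusted p of 0.0254. GATA2 differed by 0.48 ± 0.12 on the log2 scale, with an adjusted p of 0.0315.

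The calls differed in how far they rested on single biopsies. With each biopsy left out in turn, FCER1A was called in 8 of 8 fits, MS4A2 in 4 and GATA2 in 1, and 1 or 2 of the 7 genes were called. Removing any of pig 14 site 12d, pig 13 site 12e or pig 13 control site 7b left only 1 call. Without scaling for composition the median of all genes moved to -0.21 in this comparison, and GATA2 at 0.27 (adjusted p 0.143) was no longer called, while SLC18A2 at -0.48 (adjusted p 0.0334) was called lower, both in edgeR.

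The other 4 genes were not called. HDC had a log2 difference of 0.92 ± 0.28 and an adjusted p of 0.0607, and DESeq2, which called 15.8% of all genes, called it at 0.0214. HPGDS had 0.38 ± 0.23, RGS13 0.44 ± 0.59 and SLC18A2 -0.27 ± 0.14. For 4 genes, MS4A2, FCER1A, GATA2 and HDC, every pig 14 value lay above every pig 13 value, as did 9.87% of genes tested.

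Some markers of other cells also differed between the animals, in lists chosen by name, to be read against the 6.39% of all genes called higher and 4.34% called lower in pig 14. T and NK cell markers were higher in pig 14 for 6 of 10 tested, with a summed level of 39.7 to 74.9 CPM in pig 14 and 18.7 to 32.5 in pig 13. Dendritic and Langerhans cell markers, from cells that can carry FCER1A, were higher for 3 of 6, at 53.6 to 60.8 against 33.8 to 45.0 CPM. Dermal fibroblast markers were higher for 4 of 12, at 142089 to 198375 against 22693 to 113723 CPM, and of 11 keratinocyte markers 0 were higher and KRT5 was lower. The value of 22693 CPM came from the pig 13 control from site 7b, and the other pig 13 biopsies were at 80414 to 113723 CPM. Summed keratinocyte and neutrophil markers were highest in that same control, at 39749 and 441 CPM. Macrophage markers were higher for 2 of 11 and B cell markers for 1 of 7. Endothelial markers were higher for 1 of 12, near the share of all genes, with a median log2 difference of -0.01. Of 8 neutrophil, 8 adipocyte, 8 neuron and Merkel cell and 6 skeletal muscle markers tested, 0 were called. Basophil and eosinophil markers were represented by 4 of 10 genes that summed to 2.08 to 4.01 CPM, with 0 of the 2 tested called. GATA1, also in the list of mast cell transcription factors below, made up 1.06 of the 2.08 CPM and 2.83 of the 4.01 CPM. The sum is therefore not a measure of basophils and eosinophils alone. The part of these cells in the differences of the mast cell genes was not tested.

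**Figure D3:**
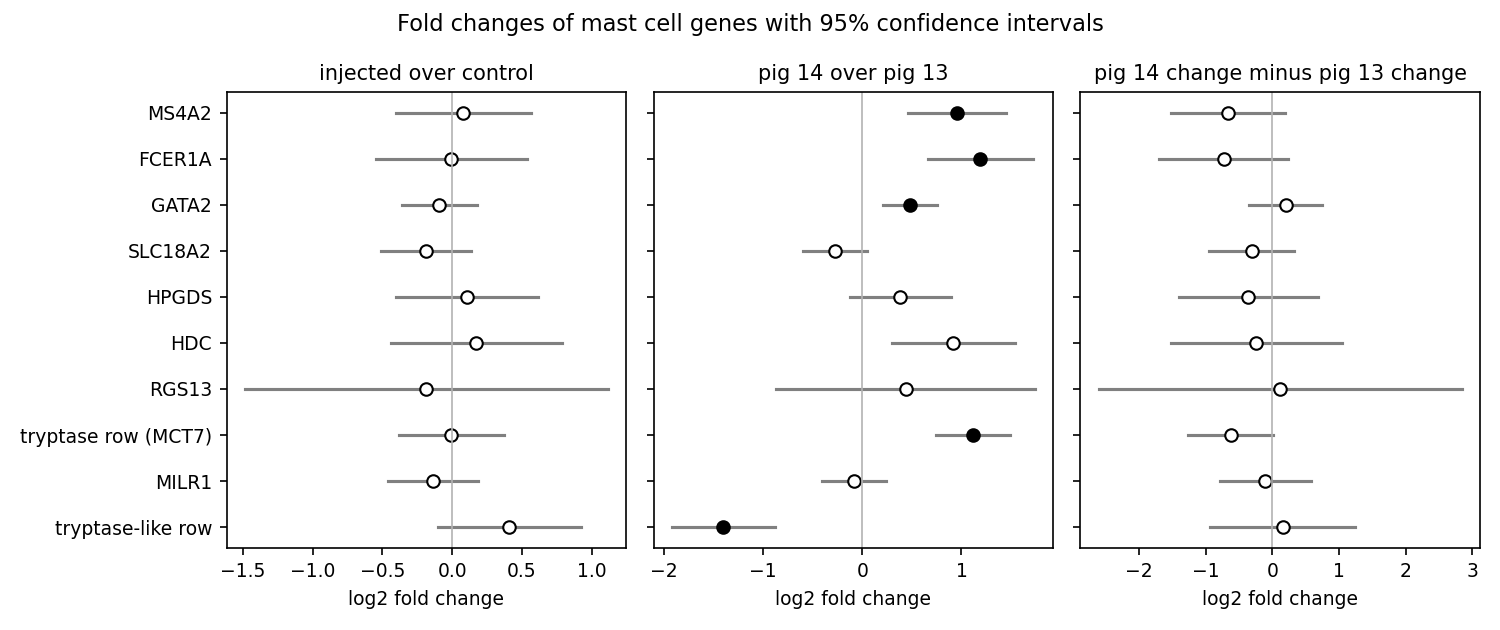
Log2 fold changes with 95% confidence intervals for the 7 genes and 3 related rows, for injected over control, pig 14 over pig 13, and the difference in the injection effect between pigs. Filled points have an adjusted p under 0.05, and they appear only in the middle panel, for MS4A2, FCER1A, GATA2, the tryptase row and the tryptase-like row.

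The injection effect was not shown to differ between the animals. In the interaction test 0 of 7 genes were called, against 0% of all genes, with 757 genes higher and 876 lower at an unadjusted p under 0.05. None of the 7 reached an unadjusted p under 0.05, and DESeq2 called 0 of the 7 and 0.433% of all genes. Here too DESeq2 gave no adjusted p for RGS13. MS4A2 had a log2 fold change of 0.42 ± 0.17 in pig 13 alone (edgeR adjusted p 0.757) and of -0.24 ± 0.30 in pig 14 alone. The difference of the 2 effects was -0.67 ± 0.37. For FCER1A it was -0.73 ± 0.43, from 0.38 ± 0.29 in pig 13 and -0.34 ± 0.30 in pig 14. Without the pig 14 control from site 6b these differences between the pigs were -0.17 for MS4A2 and -0.22 for FCER1A. In pig 13 both injected values of MS4A2, FCER1A and HPGDS lay above both controls, and in pig 14 both of SLC18A2 lay below. The share of all genes with such an order within 1 pig was not counted, so this is a description only. Injected values lay above both controls in 1 pig and below both in the other for 0 of the 7 genes and for 7.47% of all genes tested.

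Proteases fill most of the mast cell granule. Tryptases cleave peptides outside the cell, and chymase and carboxypeptidase A3 cut at other residues. The rows described next were picked by their descriptions in the table after it had been seen. A row described as tryptase (named MCT7 in RefSeq, chromosome 3, 40616643 to 40618155) was at 8.77 ± 3.76 RPKM, near MS4A2. It stood at 12.4, 10.1, 6.01 and 6.84 CPM after injection and at 12.5, 15.4, 5.54 and 4.80 CPM in controls, in the site order used above. The groups overlapped, and its log2 fold change for injection was -0.01 ± 0.17.

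Between animals this tryptase row was higher in pig 14 by 1.12 ± 0.17 on the log2 scale (edgeR adjusted p 0.00338), and it was called in 8 of 8 fits that left out a biopsy. A neighbouring tryptase-like row (chromosome 3, 40633235 to 40635782) went the other way, at 1.04 ± 0.31 CPM in pig 14 and 2.75 ± 0.50 in pig 13, a difference of -1.40 ± 0.23 with an edgeR adjusted p of 0.00514. The tryptase-like row was also called in 8 of 8 fits that left out a biopsy. Tryptase genes are near-identical copies in many species, and the counting may split their reads, so the division between these rows is uncertain. Whether reads were split here was not tested. A further tryptase row had 6 to 11 counts per biopsy, and a row described as mast cell protease 3 had 0 to 2, both below the filter.

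At the RefSeq position of CPA3 (chromosome 13, 89093296 to 89132088, Sscrofa11.1) the table held a feature annotated as a pseudogene, with 0 to 2 counts per biopsy and 5 in all. MILR1, an inhibitory immunoglobulin-like receptor of mast cells, was at 6.93 ± 0.75 CPM after injection and 7.62 ± 0.89 without it (SD, n = 4), a log2 fold change of -0.14 ± 0.15. A row described as mast cell expressed membrane protein 1 had 9, 4, 10 and 7 counts in injected and 2, 0, 4 and 2 in control biopsies, which was below the filter and not tested.

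The receptor chains and the tryptase row varied in proportion to each other more closely than MS4A2 and SLC18A2 did. The ratio of MS4A2 to FCER1A counts lay between 9.87 and 14.6, a 1.48-fold range, although MS4A2 counts ran from 779 to 2164. The ratio of MS4A2 to the tryptase row lay between 3.68 and 5.59. The ratio of MS4A2 to SLC18A2 ran from 2.00 to 8.04 and that to KIT, the stem cell factor receptor, from 0.65 to 3.00.

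After removing each pig's mean, the log2 CPM of MS4A2 and FCER1A correlated at 0.89 over 8 biopsies, MS4A2 and the tryptase row at 0.88, and FCER1A and HPGDS at 0.91. MS4A2 with GATA2 gave -0.25 and with KIT -0.24. Over the 21 pairs of the 7 genes the median was 0.29, with 6 pairs over 0.5 and 5 below 0. These are descriptions of 8 points that share libraries and 2 animals. The pig 14 control from site 6b was the highest biopsy for 5 of the 7 genes. The share of all genes highest in that biopsy was not counted. Summed macrophage markers and T and NK cell markers were also highest there, at 1174 and 74.9 CPM. Summed endothelial markers were lowest there, at 799 CPM. Without that biopsy the log2 fold change for injection was 0.35 for MS4A2, 0.28 for FCER1A, 0.31 for HPGDS and 0.52 for RGS13. GATA2, the other gene highest there, was at -0.08, and none of these genes was called. The biopsy is a control picked as the highest for these genes, so leaving it out raises the values by construction.

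**Figure D4:**
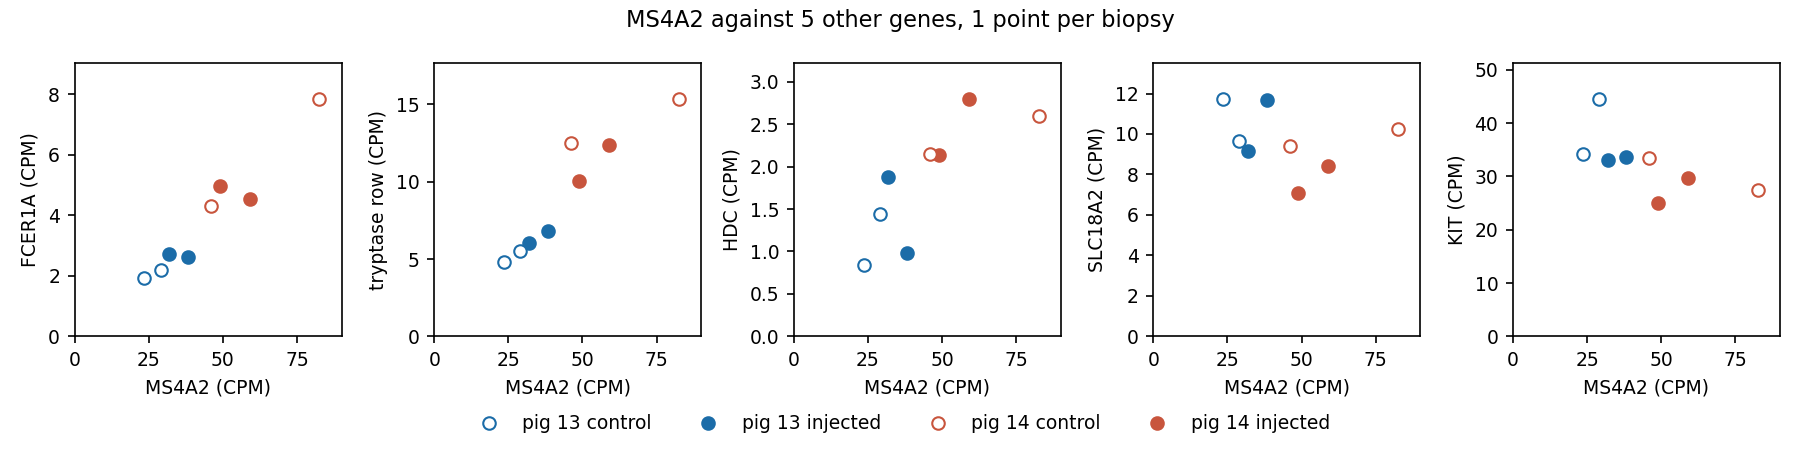
MS4A2 CPM on the horizontal axis against the CPM of FCER1A, the tryptase row, HDC, SLC18A2 and KIT, with 1 point per biopsy, pig 13 in blue, pig 14 in red and injected sites filled. FCER1A and the tryptase row rise with MS4A2 in a narrow band, while SLC18A2 and KIT do not.

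The genes whose pattern within pigs was most like the mean of the 6 mast cell genes with at least 1 CPM were MTMR12 (r = 0.98), FANCL (0.98), BANK1 (0.96), SCIMP (0.95), CYP1A1 (0.95), WDR7 (0.95), STAB1 (0.93) and LYSMD1 (0.93). They were the top 8 of 13911 candidates over 8 biopsies, of which 17 reached 0.9.

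Other genes of the mast cell were taken from lists chosen by name, and in injected against control biopsies 0 genes of any list were called. Receptor signalling had 15 tested genes with a median log2 fold change of -0.02. Within it KIT was at 30.3 ± 3.93 CPM after injection and 34.9 ± 7.09 without it (SD, n = 4), a log2 fold change of -0.20 ± 0.12, and INPP5D, a phosphatase that restrains IgE signalling, was at -0.28 ± 0.16. FYN of the same list was at 0.11 ± 0.08. Granule contents and exocytosis had 11 tested genes with a median near 0, among them the membrane fusion protein SNAP23 at -0.16 ± 0.10 and RAB27A, a granule transport GTPase, at -0.25 ± 0.19. STX4 of the same list was at 0.12 ± 0.10.

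The enzymes and receptors around histamine and lipid mediators gave small values. The histamine receptor HRH1 was at 0.38 ± 0.18 and HRH2 at -0.41 ± 0.26 on the log2 scale. Of 6 tested eicosanoid genes 3 were above 0, with a median of 0.002, and the cyclooxygenase PTGS1 was at -0.28 ± 0.31. LTC4S, the leukotriene C4 synthase, had 0 counts in all 8 biopsies. Among 10 transcription factors, GATA1 was at 0.38 ± 0.28 and STAT5A, which signals below IL-15 and KIT, at 0.12 ± 0.10. Of 13 other surface receptors 7 were above 0, with a median of 0.04, and ENPP3, a basophil and mast cell ectoenzyme, was at -0.31 ± 0.17.

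Cytokines that activated mast cells can make had values further from 0 for some genes, and many other cells make them too. The median of 9 tested genes was 0.22, and 4 of the 9 had an unadjusted p under 0.05, as did 474 genes higher and 428 lower among all 19862. TNF was at 4.13 ± 1.80 CPM after injection and 1.59 ± 0.73 without it (SD, n = 4), with overlapping values, a log2 fold change of 1.41 ± 0.24 with an edgeR adjusted p of 0.200. IL6 was at 3.00 ± 0.61 and CCL4 at 2.48 ± 0.51 on the log2 scale, with edgeR adjusted p-values of 0.681 and 0.746. IL4, IL13 and CSF2 were below the filter. For IL-15 itself, the feedback inhibitor SOCS3 was at 1.86 ± 0.63 and CISH at 0.23 ± 0.10, neither called.

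Between the animals, some of these genes were called, and those named here were picked after their values were seen. Higher in pig 14 were FCER1G, the shared gamma chain of the IgE receptor, at 0.72 ± 0.15 (edgeR adjusted p 0.0124), INPP5D at 0.63 ± 0.17 and PTPN6 at 0.85 ± 0.19, which made 3 of 15 signalling genes, against 6.39% of all genes. The transcription factor SPI1 was higher by 0.70 ± 0.15 (1 of 10 factors) and the inhibitory receptor CD200R1 by 0.99 ± 0.25 (1 of 13 other surface receptors). RAB27B, a granule transport GTPase, was lower, at -0.64 ± 0.17. It was 1 of 11 granule genes, against 4.34% of all genes lower. Of the IL-15 receptor and feedback genes 3 of 8 were higher, with a smallest edgeR adjusted p of 0.000385. Of the products of activated mast cells 1 of 9 was higher. Of 6 eicosanoid and 5 histamine genes tested, 0 were called. FCER1G, PTPN6 and SPI1 are expressed across myeloid cells. KIT had a difference of -0.33 ± 0.12 and an adjusted p of 0.101 in edgeR, so it was not called.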

How the data were processed

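Skin RNA of 8 biopsies, 4 from each of 2 pigs, was sequenced. Per the submitters' processing notes, the tools were bcl2fastq, STAR 2.5.1a and featureCounts 1.4.6-p5 of Subread, with the build Sscrofa11.1. Their settings, the annotation release and the use of strand are not given in the sources used here. The authors deposited raw counts for each Ensembl gene and, beside them, CPM and RPKM that the authors derived from those counts, per the file headers. The tests used the counts of the series table. The copy of the single file for the pig 13 control from site 7b used here ends after 607 complete genes, all equal to the table, and was not used.

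Of 32388 rows, 425 genes on several rows had identical counts and were kept once, which left 31907 genes. Genes were filtered with filterByExpr at a minimum count of 10 and scaled by TMM. The test was edgeR 4.0.16 (R 4.3.3), quasi-likelihood with robust estimation, Benjamini-Hochberg adjustment over 19862 genes and a threshold of 0.05. The model held pig and treatment, and a further model their interaction. DESeq2 1.42.0 was an alternative. The biological coefficient of variation was 19.8%. CPM and RPKM printed here were recomputed after TMM scaling.

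Pig is a block because the labels name the animal of each biopsy. Between injected and control biopsies, deviations from the group means had correlations of 0.22 to 0.62 in the same pig and of -0.56 to -0.26 in different pigs. Deviations within a group sum to 0, so the negative values follow from the positive ones. None of the 28 pairs of biopsies agreed within sampling noise. Every pair that held the pig 13 control from site 7b differed more than any pair without it.

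The members and lists were chosen with earlier results of these data known. The genes named are all members, the 8 most alike in pattern, and, for injection, up to 3 of each list with the smallest unadjusted p. Not every gene the rule takes is named. List genes named for a difference between the animals were picked after their values were seen. Promoter letters were not searched, since no promoter sequence was used here.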

Additional observations from a re-analysis of the deposited data

Results flagged for a closer look

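Among control biopsies, HPGDS at site 6b of pig 14 stood far from the others, at 2.86 CPM, with a gap to the next value of 0.857 of the whole range. Chance flags about 1 in 20 groups of this size in this way.

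The tryptase row (MCT7 in RefSeq) lay above the controls in both injected biopsies of pig 13 and below the controls in both of pig 14. The difference between the pigs was -0.62 ± 0.29 on the log2 scale in edgeR's interaction test, with an unadjusted p of 0.0538 and an adjusted p of 0.614. Of all genes tested, 7.47% had injected values above the controls in 1 pig and below them in the other.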

How the results depend on the processing

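Across alternatives other than leaving out a biopsy, 198 of the values of single genes kept their direction and side of the threshold. For injection, MS4A2 changed sign to -0.023 with no replicate block and to -0.24 in pig 14 alone, FCER1A to 0.38 and the tryptase row to 0.32 in pig 13 alone, and GATA2 to 0.016 and HPGDS to -0.062 in pig 14 alone. All of these started within 1 SE of 0, and the cause was not tested. Between pigs, without scaling beyond total count GATA2 was 0.27 and SLC18A2 -0.48 (adjusted p 0.0334, now called), and DESeq2 called HDC at 0.91.

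Counts of genes called moved as follows. For injection, DESeq2 called 48 higher and 10 lower, pig 13 alone 30 higher, and pig 14 alone 13 higher and 1 lower. Between pigs, 3936 were lower without scaling and 1333 with DESeq2, against 863. For the interaction, DESeq2 called 24 higher and 62 lower, and no filter on low counts gave 3 higher and 5 lower.

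Leaving out each biopsy in turn gave 3 to 19 genes higher and 0 to 1 lower for injection, 723 to 1347 higher and 392 to 903 lower between pigs, 0 to 143 higher and 0 to 170 lower for the interaction, and 1 to 2 of the 7 genes called between pigs. Injection effects then ran from -0.048 to 0.35 for MS4A2, -0.12 to 0.28 for FCER1A, 0.014 to 0.31 for HPGDS, -0.050 to 0.31 for HDC, -0.58 to 0.52 for RGS13 and -0.11 to 0.12 for the tryptase row. Between pigs, RGS13 ran from -0.27 to 0.84. Interaction values ran from -1.003 to -0.17 for MS4A2, -1.08 to -0.22 for FCER1A, -0.65 to 0.059 for HPGDS, -0.68 to 0.29 for HDC, -0.76 to 2.80 for RGS13, -0.31 to 0.073 for MILR1 and -0.13 to 0.46 for the tryptase-like row.

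Depth limits RGS13 and the low tryptase rows. With 2 animals, no value here speaks for pigs in general.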
